A study of Mus musculus with 8 samples.

Results

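The 10 genes described here (*Adipoq*, *Cfd*, *Lep*, *Plin1*, *Cidec*, *Plin4*, *Fabp4*, *Pparg*, *Scd1* and *Car3*) are known for high expression in fat cells, and they were taken by symbol from the 16686 genes of the deposited table. They were measured by RNA sequencing in the tibialis anterior (TA) muscle, a mostly fast-twitch muscle of the lower hindlimb, of 4 WT Old and 4 C2-/- Old mice, with 1 library per mouse. All mice were males on the FVBN background with an age of 22 months in their labels, and a growth protocol in the same labels names a far younger age. The C2-/- mice lack *Mybpc2*, the gene of fast myosin binding protein-C, in the whole body, because a Neo cassette between LoxP sites took the place of exons from 2 to 22, and the WT mice carry no such allele. Age and sex are shared by both groups, so that neither can be compared here.

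A fat cell stores triglyceride in a single large droplet. PPARγ, encoded by *Pparg*, and the C/EBP factors switch on the genes that coat this droplet (perilipins and CIDEC), make and carry its fatty acids (SCD1 and FABP4) and give the fat cell its secreted products (adiponectin, adipsin and leptin). In old or injured muscle, fat cells can appear between fibres and arise from fibro-adipogenic progenitors, which are PDGFRα-positive stromal cells. Several of these genes are also used outside fat cells. Capillary endothelium makes *Fabp4*, muscle fibres make *Car3* and *Plin4*, and *Scd1* is used wherever fatty acids are made. In bulk tissue, fewer cells of a type and less RNA per cell cannot be told apart, so a level of these genes is not a count of fat cells.

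The libraries held between 25425993 and 29747692 counts, and 3 counts, the smallest level taken as measurable, lay at 0.101 to 0.118 CPM (CPM are counts rescaled for sequencing depth). This limit covers counting error only. *Mybpc2* ranged from 4964 to 7392 CPM in WT Old and from 3.85 to 38.3 CPM in C2-/- Old, with a log2 fold change of −8.82 (SE 0.94, edgeR adjusted p = 0.0075). The highest of the C2-/- Old values belonged to replicate 3. The 8 skeletal muscle markers summed to between 150219 and 196370 CPM in every mouse, while the skin markers summed to at most 1.58 CPM. *Krt1* and *Dsp* were under 3 counts in all mice.

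No difference of the adipocyte genes between the genotypes passed the test, and the values of the mice overlapped in each gene. Of the 10 genes, all passed the filter on low counts, 0 were called (adjusted p under 0.05 and over 1.5-fold, edgeR), 0 had an unadjusted p under 0.05, and 0 had CPM values that did not overlap between WT Old and C2-/- Old. Among all 12542 tested genes, 0.0319% were called, 5.29% had an unadjusted p under 0.05 and 3.38% did not overlap. DESeq2 and limma-voom called 0 of the 10 as well, and DESeq2 gave 1 unadjusted p under 0.05, that of *Adipoq*. The shares over all tested genes were taken in edgeR only. The log2 fold change (C2-/- Old over WT Old) was above 0 for 5 genes and below 0 for 5, with a median of −0.01 against −0.02 over all tested genes. Most of the adipocyte genes varied widely from mouse to mouse. Their median biological coefficient of variation, edgeR's estimate of the relative spread between mice, was 0.435, against 0.196 over all tested genes, but that of *Fabp4* (0.198), *Car3* (0.20) and *Pparg* (0.224) was near the value for all genes.

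**Figure D1:**
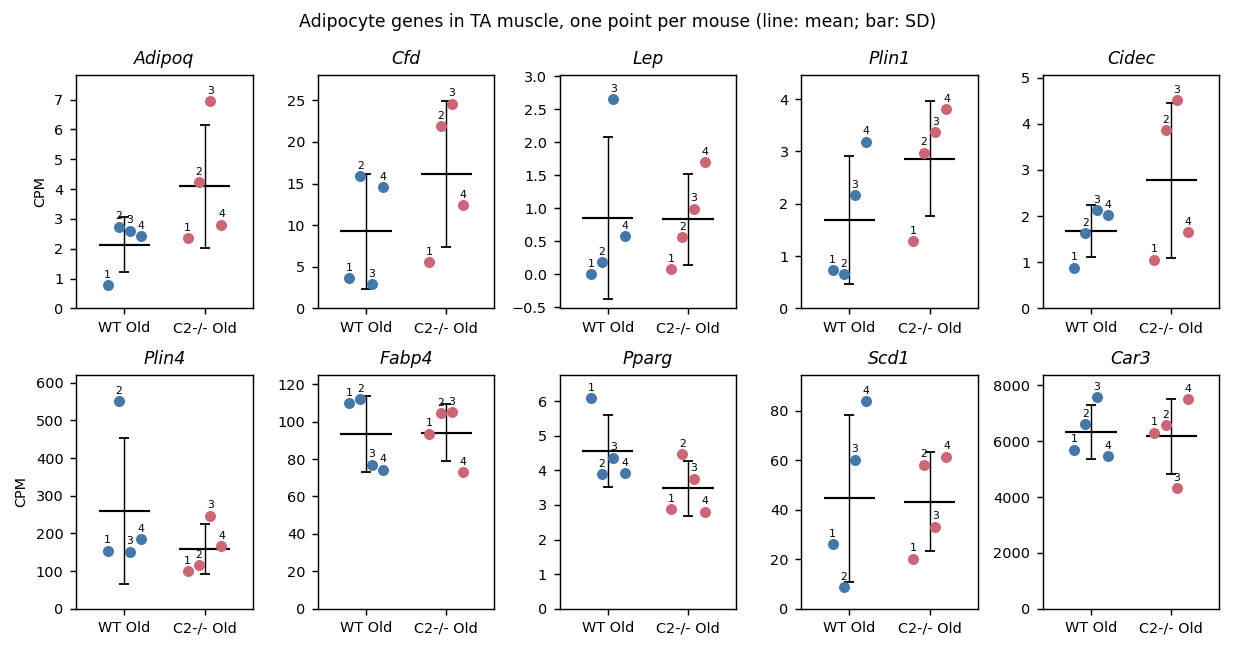
CPM of the 10 adipocyte genes in each mouse (y axes, linear and different for each gene), with WT Old in blue and C2-/- Old in red, numbers for the replicates, lines for means and bars for SD (n = 4). The genotypes overlap in every panel, and *Plin4* in WT Old replicate 2 (551 CPM) and *Adipoq* in WT Old replicate 1 (0.771 CPM) lie apart from their groups.

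The sequence before the start site is shown for a pair of the secreted products, *Adipoq* and *Cfd*, because both are fat cell hormones or enzymes released to the blood and because their windows end right before the first annotated base of the gene. Of the 10 genes, 7 matched the RefSeq promoter table, with 10 windows of 250 bases before a start. *Fabp4*, *Scd1* and *Car3* were not matched. The windows were searched on both strands for the C/EBP motif TTGCNNAA, the CCAAT box CCAAT and the consensus direct repeat of PPARγ-RXR, and no match of one motif overlapped a match of another. Matches are in capitals in the windows of *Adipoq* (chr16:23146286-23146535, plus strand) and *Cfd* (chr10:79890603-79890852, plus strand), both from RefSeq on GRCm38.p6 and written 5′ to 3′.
Adipoq: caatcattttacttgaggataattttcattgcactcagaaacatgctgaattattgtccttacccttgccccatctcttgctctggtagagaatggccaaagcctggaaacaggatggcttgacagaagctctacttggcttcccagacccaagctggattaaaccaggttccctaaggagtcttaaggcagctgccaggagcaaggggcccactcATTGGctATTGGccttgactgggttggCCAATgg
Cfd: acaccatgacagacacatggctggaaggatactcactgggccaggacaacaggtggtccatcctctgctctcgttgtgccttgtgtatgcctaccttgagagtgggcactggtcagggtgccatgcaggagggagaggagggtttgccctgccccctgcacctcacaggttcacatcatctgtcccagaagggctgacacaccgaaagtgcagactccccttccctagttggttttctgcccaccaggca

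The *Adipoq* window holds CCAAT-box letters at −34, −27 and −7 from the start, and the *Cfd* window holds none of the 3 motifs. Elsewhere, TTGCNNAA was found in the windows of *Plin1* (at −187 and −58), *Lep* (at −55), 1 of 2 windows of *Cidec* (at −198) and 1 of 3 windows of *Pparg* (at −215 and −16). CCAAT-box letters also lay in the *Plin4* window and in 2 of the 3 *Pparg* windows. The direct repeat was found in none of the 10 windows. Over all 32851 windows of this length, 9.56% held TTGCNNAA, 33.8% held CCAAT and 0.0335% held the direct repeat, so the first 2 matches are common by letters alone and a match is not evidence of binding.

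Compared per length, in the TPM values that the authors deposited, which are scaled for transcript length and depth, the 10 genes spanned a wide range of levels. *Car3*, encoding a carbonic anhydrase of muscle and fat, had 7778 ± 1633 TPM (SD, n = 8) and *Fabp4*, encoding a fatty acid carrier, 298 ± 46.5 TPM. Next came *Plin4* with 62.7 ± 39.4 TPM, *Cfd* with 27.1 ± 17.8 TPM and *Scd1* with 17.0 ± 10.1 TPM. *Adipoq* had 4.91 ± 2.93 TPM, *Pparg* 3.82 ± 0.948 TPM, *Cidec* 2.49 ± 1.51 TPM, *Plin1* 2.34 ± 1.33 TPM and *Lep* 0.5 ± 0.563 TPM. The ranges over the mice did not overlap between *Car3* and *Fabp4* or between *Fabp4* and *Plin4*, and every other pair of neighbours in this order overlapped. *Cfd* was above *Scd1* in 5 of 8 mice and *Cidec* above *Plin1* in 5 of 8.

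The ratio of these levels was not constant. *Fabp4* TPM was between 30.8 and 289 times *Adipoq* TPM within a mouse, and *Car3* TPM between 491 and 5841 times. In both cases the highest ratio was in WT Old replicate 1 and the lowest in C2-/- Old replicate 3. *Plin4* TPM was between 11.9 and 266 times *Plin1* TPM, with the highest ratio in WT Old replicate 2.

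**Figure D2:**
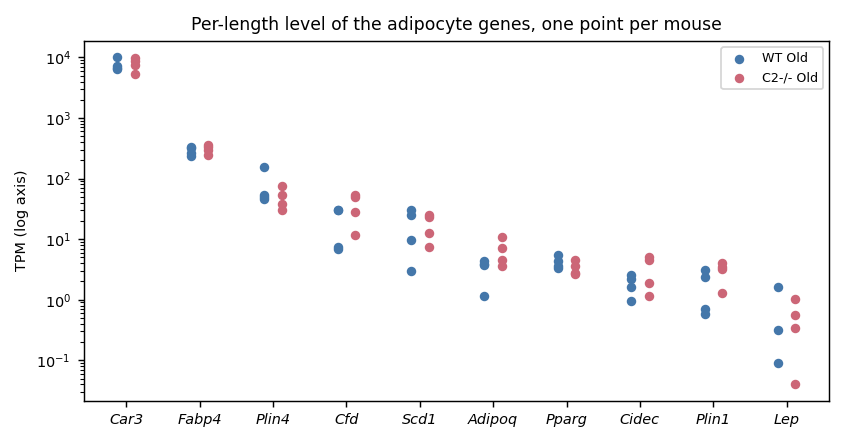
TPM deposited by the authors for the 10 adipocyte genes (y axis, log scale), ordered by their mean, with 1 point per mouse and WT Old in blue beside C2-/- Old in red. *Car3* and *Fabp4* stand above the other genes without overlap, and the *Lep* value of 0 in WT Old replicate 1 is not drawn.

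Among the secreted products, *Adipoq* (gene ID 11450, chromosome 16, 23146536 to 23158500), encoding adiponectin, which raises insulin sensitivity, had 0.771, 2.74, 2.61 and 2.43 CPM in WT Old replicates 1 to 4. In C2-/- Old, it had 2.35, 4.24, 6.95 and 2.81 CPM. Replicate 1 of WT Old was lowest and replicates 2 and 3 of C2-/- Old were highest, while the remaining 5 mice lay within 2.35 to 2.81 CPM. The log2 fold change was 0.93 (SE 0.42, 95% interval −0.01 to 1.88), and the difference did not pass the test (edgeR unadjusted p = 0.0521, adjusted p = 0.943). It was 0.55 without C2-/- Old replicate 3, the mouse with the highest *Adipoq* and the highest *Mybpc2* of its group, and 0.66 without WT Old replicate 1. It was larger, up to 1.13, without C2-/- Old replicate 1, WT Old replicate 2 or C2-/- Old replicate 4, with unadjusted p of 0.0267, 0.0401 and 0.0431 in edgeR, none of which passed after adjustment. It was also larger without WT Old replicate 3 (1.05) or WT Old replicate 4 (1.02), with unadjusted p of 0.0542 and 0.0632 in edgeR.

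*Cfd* (gene ID 11537, chromosome 10, 79890853 to 79892660) encodes adipsin, the protease complement factor D. It had 3.62, 15.9, 2.95 and 14.6 CPM in WT Old and 5.60, 21.9, 24.6 and 12.4 CPM in C2-/- Old. Each genotype held both low and high mice, and the groups overlapped, with a log2 fold change of 0.80 (SE 0.59, 95% interval −0.50 to 2.10, edgeR adjusted p = 0.968).

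*Lep* (gene ID 16846, chromosome 6, 29060195 to 29073877) encodes leptin, the satiety hormone of fat. It had 0, 0.182, 2.65 and 0.579 CPM in WT Old and 0.0757, 0.558, 0.993 and 1.70 CPM in C2-/- Old. It was at or under 3 counts in a mouse of each genotype, and the highest and lowest of all 8 values were both in WT Old. Its log2 fold change was −0.03 (SE 1.04, edgeR adjusted p = 0.999), and the 95% interval of −2.33 to 2.27 was the widest of the 10 genes. Without WT Old replicate 3, the highest mouse, the log2 fold change was 1.69. It was also above 0 without C2-/- Old replicate 1 (0.36) or C2-/- Old replicate 2 (0.12), so no direction can be read for *Lep*. Its coefficient of variation of 1.05 was above that of 99.9% of tested genes.

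Of the droplet coat genes, *Plin1* (gene ID 103968, chromosome 7, 79721164 to 79732903) encodes the perilipin that guards the fat cell droplet and controls lipolysis. It had 0.733, 0.657, 2.17 and 3.19 CPM in WT Old and 1.29, 2.98, 3.37 and 3.81 CPM in C2-/- Old. The lowest 2 mice were both WT Old, and WT Old replicate 4 lay among the higher C2-/- Old mice. The log2 fold change was 0.76 (SE 0.51, 95% interval −0.37 to 1.89, edgeR adjusted p = 0.968), and it was 1.28 without WT Old replicate 4 and 0.50 without WT Old replicate 2.

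*Cidec* (gene ID 14311, chromosome 6, 113424634 to 113437636) encodes the protein that lets droplets fuse into a single large one. It had 0.887, 1.64, 2.13 and 2.03 CPM in WT Old and 1.06, 3.87, 4.51 and 1.66 CPM in C2-/- Old. Replicates 2 and 3 of C2-/- Old lay above all WT Old mice, and the other two did not. Between the genotypes it differed by a log2 fold change of 0.73 (SE 0.45, 95% interval −0.28 to 1.74, edgeR adjusted p = 0.968), which was 0.39 without C2-/- Old replicate 3.

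*Plin4* (gene ID 57435, chromosome 17, 56100587 to 56109953) encodes a perilipin of small nascent droplets, and its interval in the deposited table overlaps those of *Plin5* and *Hdgfl2*. In RefSeq it overlaps *Hdgfl2*, at the end of both genes, and not *Plin5*. The sources used here do not state which intervals or strand the counting used, so its counts are uncertain to that extent. It had 154, 551, 152 and 185 CPM in WT Old and 100.3, 116, 247 and 166 CPM in C2-/- Old. Replicate 2 of WT Old stood far above the other 7 mice, which lay between 100.3 and 247 CPM. The log2 fold change was −0.72 (SE 0.44, 95% interval −1.70 to 0.25, edgeR adjusted p = 0.968), and without that mouse it was −0.05.

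*Fabp4* (gene ID 11770, chromosome 3, 10204342 to 10208602), whose interval overlaps that of *Fabp9* in the deposited table but not in RefSeq, had 110, 112, 77.1 and 74.4 CPM in WT Old and 93.6, 105, 105 and 72.9 CPM in C2-/- Old. Both genotypes spanned a similar range, and the log2 fold change was 0.01 (SE 0.18, 95% interval −0.38 to 0.40, edgeR adjusted p = 0.998). The 8 endothelial markers, of which *Pecam1* is a defining one, summed to between 254 and 356 CPM in WT Old and between 250 and 332 CPM in C2-/- Old, with 4 higher and 4 lower. Their part in the *Fabp4* level was not tested.

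*Pparg* (gene ID 19016, chromosome 6, 115360877 to 115491123), encoding the nuclear receptor that drives fat cell formation, had 6.09, 3.90, 4.37 and 3.91 CPM in WT Old and 2.88, 4.46, 3.76 and 2.81 CPM in C2-/- Old. Its highest value was in WT Old replicate 1, the mouse with the lowest *Adipoq*. Its log2 fold change was −0.39 (SE 0.22, 95% interval −0.88 to 0.10, edgeR adjusted p = 0.968).

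*Scd1* (gene ID 20249, chromosome 19, 44394450 to 44408816), encoding the desaturase that makes monounsaturated fatty acids, had 26, 8.64, 60.3 and 83.8 CPM in WT Old and 20.3, 58.3, 33.2 and 61.5 CPM in C2-/- Old. The lowest and the highest mouse were both WT Old, 9.70-fold apart, and the log2 fold change was −0.05 (SE 0.58, 95% interval −1.33 to 1.24, edgeR adjusted p = 0.998). Its counts were not whole numbers in 5 mice, which was so for no other of the 10 genes.

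*Car3* (gene ID 12350, chromosome 3, 14863509 to 14872381) had 5699, 6621, 7594 and 5462 CPM in WT Old and 6311, 6568, 4315 and 7508 CPM in C2-/- Old. Its lowest mouse, C2-/- Old replicate 3, was the one with the highest *Adipoq*, *Cfd* and *Cidec*. Its log2 fold change was −0.04 (SE 0.18, 95% interval −0.44 to 0.36, edgeR adjusted p = 0.996). *Car3* and *Fabp4* had the tightest intervals of the 10 genes, and these bounds stay within 0.44 on the log2 scale in either direction.

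**Figure D3:**
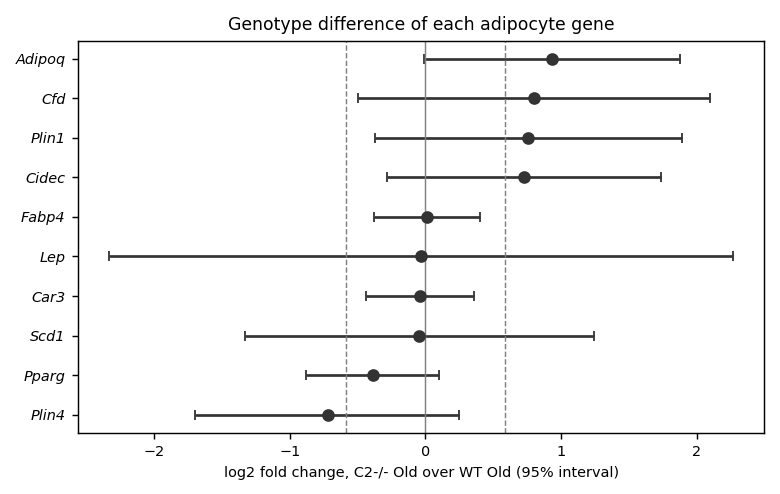
Log2 fold change of each adipocyte gene, C2-/- Old over WT Old (x axis), with its 95% interval from edgeR. The solid line marks no difference and the dashed lines 1.5-fold. Every interval crosses 0, from *Adipoq* at 0.93 down to *Plin4* at −0.72.

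Each of the other 9 genes was compared with *Adipoq* on log2 CPM over the 8 mice, with exact permutation tests adjusted over the 9 relations. *Cidec* followed *Adipoq* most closely, with Pearson r = 0.88 (two-sided exact permutation p = 0.00122, adjusted p = 0.0109) and Spearman rho = 0.81 (permutation p = 0.0218, adjusted p = 0.165). After centring on the genotype means, Pearson r was 0.88. It was 0.85 without WT Old replicate 1 and C2-/- Old replicate 3, the mice farthest from the median of *Adipoq*. In the 6 mice left, *Adipoq* lay within 2.35 to 2.81 CPM, except in C2-/- Old replicate 2 (4.24 CPM). That mouse also had 3.87 CPM of *Cidec*, against 1.06 to 2.13 CPM in the rest, so the value of 0.85 leans on 1 mouse. The relation thus passed the adjusted threshold by Pearson r and missed it by rank.

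For *Cfd*, r was 0.73 (permutation p = 0.0235, adjusted p = 0.106) and rho 0.76 (permutation p = 0.0368, adjusted p = 0.165), and r was 0.55 without the same 2 mice and 0.64 after centring. *Plin1* had r = 0.63 (permutation p = 0.0901, adjusted p = 0.215) and rho = 0.57 (permutation p = 0.151), and *Lep* r = 0.62 (permutation p = 0.0956, adjusted p = 0.215) and rho = 0.55 (permutation p = 0.171). Without the 2 mice, r fell to 0.28 for *Plin1* and 0.15 for *Lep*. Those 2 had the lowest and the highest *Adipoq*, and little of its range was left. The fall therefore cannot decide whether these relations rest on them.

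*Plin4*, *Scd1*, *Fabp4*, *Car3* and *Pparg* had r of 0.17, 0.16, −0.01, −0.26 and −0.46, and the smallest permutation p among them was 0.227. Their rho values were 0.33, 0.17, 0.0, 0.05 and −0.29, with permutation p of at least 0.428. After centring on the genotype means, r was 0.55 for *Plin4*, 0.48 for *Plin1*, 0.64 for *Lep*, 0.10 for *Scd1*, −0.05 for *Fabp4*, −0.24 for *Car3* and −0.19 for *Pparg*. Without the 2 mice, r changed sign for *Plin4* (−0.15), *Fabp4* (0.44), *Car3* (0.18) and *Pparg* (0.46). Those values rest on the narrow *Adipoq* range that was left, and none of these relations passed with all mice. No direction can be read for these genes. The low counts of *Adipoq*, between 20 and 196 per mouse, *Cidec* and *Plin1* add counting error to each of these values.

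**Figure D4:**
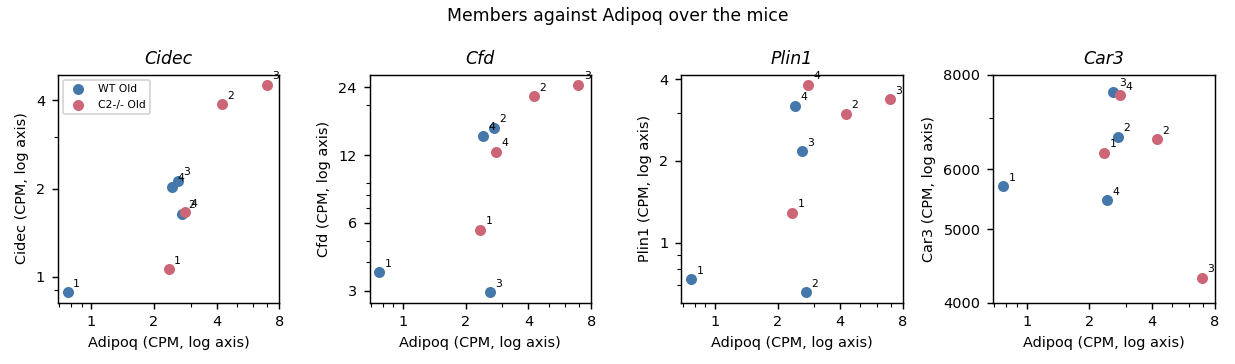
CPM of *Cidec*, *Cfd*, *Plin1* and *Car3* (y axes, log scale) against CPM of *Adipoq* (x axes, log scale), with 1 numbered point per mouse, WT Old in blue and C2-/- Old in red. *Cidec* climbs with *Adipoq* (r = 0.88) and *Car3* does not (r = −0.26).

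Outside the lists used here, the genes whose log2 CPM was most like that of *Adipoq* over the 8 mice, among 11273 genes with a mean of at least 1 CPM, were *Cyfip1*, *Lrrc17*, *Otog*, *Eif1ax* and *Zfp729a*, with Pearson r between 0.921 and 0.929. Those most like *Car3* were *Pank3* (r = 0.964), *Plekhg1*, *Sox12*, *Dgcr2* and *Dgkd* (down to 0.914). They were picked for this likeness over 8 values, which describe these mice only. For *Scd1* and *Plin4*, added after their values were seen, the closest were *Mtmr3* (r = 0.99) and *Ap3d1* (r = 0.981).

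The wider lipid programme was read from 6 lists with 64 genes of lipid droplets and lipolysis, fatty acid synthesis, uptake, adipogenic factors, adipokines with their receptors, and heat production. Of these, 59 were tested. *Cidea*, *Nrg4* and *Adrb3* were below the filter, and *Ucp1* and *Elovl3* were not analysed here. The log2 fold change was above 0 for 24 and below 0 for 35, with a median of −0.04. Over all 12542 tested genes, 5738 were above 0 and 6804 below, which is the background for each such count from here on. Past an unadjusted p of 0.05 were 0 higher and 1 lower (background 3.38% higher and 1.91% lower), and 0 passed the adjusted threshold in edgeR. DESeq2 gave 4 unadjusted p values under 0.05, a count without a share over all genes in that fit.

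The 1 gene was *Klf15*, encoding a glucocorticoid-responsive factor that promotes fat cell formation and muscle lipid use. It had 45.0, 99.6, 43.5 and 60.5 CPM in WT Old and 35.3, 44.7, 28.7 and 43.5 CPM in C2-/- Old, with a log2 fold change of −0.71 (SE 0.26, edgeR unadjusted p = 0.022, adjusted p = 0.852). Without WT Old replicate 2, the highest mouse, it was −0.38 with an unadjusted p of 0.0566 in edgeR. When any 1 mouse was left out, this p lay between 0.00947 (without WT Old replicate 3) and 0.0647 (without C2-/- Old replicate 3) in edgeR. None passed after adjustment.

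In adipogenic factors, 5 of 13 were above 0 and 8 below. *Cebpb* and *Cebpd*, early factors of fat cell formation that also respond to stress, had log2 fold changes of −0.82 and −1.17, with unadjusted p of 0.0692 and 0.123 in edgeR. Without WT Old replicate 2, these were −0.32 and −0.82. In lipolysis, 3 of 10 were above 0, and *Pnpla2*, encoding the lipase ATGL, had a log2 fold change of −0.74, with an unadjusted p of 0.0585 in edgeR, and of −0.19 without WT Old replicate 2.

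In fatty acid synthesis, 6 of 17 were above 0. *Srebf1*, encoding the factor that drives this pathway, had a log2 fold change of −0.54 (edgeR unadjusted p = 0.0663). *Pck1*, an enzyme of glycerol synthesis in fat cells, had one of 1.12 (edgeR unadjusted p = 0.169). Without WT Old replicate 2, *Srebf1* was −0.69, with an unadjusted p of 0.0192 in edgeR. *Fasn*, the fatty acid synthase, was −0.26, and −0.51 without that mouse (edgeR unadjusted p of 0.438 and 0.0255). Without WT Old replicate 1, *Srebf1* was −0.22 (edgeR unadjusted p = 0.285). Without WT Old replicate 4, *Pck1* was 2.4 (edgeR unadjusted p = 0.00524). None passed after adjustment. In uptake, 3 of 8 were above 0, and *Gpihbp1*, which holds lipoprotein lipase on capillaries, had −0.46, with an unadjusted p of 0.0507 in edgeR. *Gpihbp1* had −0.61 without WT Old replicate 4 and −0.33 without WT Old replicate 2. Their unadjusted p were 0.00445 and 0.133 in edgeR, and neither passed after adjustment. In adipokines and receptors 4 of 6 were above 0, and the smallest unadjusted p in edgeR were 0.345 for *Rbp4* (0.44), encoding the retinol carrier, 0.53 for *Retn* (0.40), encoding resistin, and 0.543 for *Adipor2* (−0.06), encoding an adiponectin receptor. In heat production 3 of 5 were above 0, and *Dio2*, encoding the deiodinase that activates thyroid hormone, had 0.34, with an unadjusted p of 0.36 in edgeR.

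WT Old replicate 2, the mouse with the highest *Plin4* and the lowest *Scd1*, also stood at the ends of the range for other lipid genes. Of the 59 lipid genes, this mouse was the highest of 8 for 15 and the lowest for 13, beside WT Old replicate 1, the highest for 14, and C2-/- Old replicate 3, the lowest for 11. On the counts of the libraries, its chi-square per degree of freedom was 102, 174 and 149 against WT Old replicates 1, 3 and 4. These differed from each other by 52.9 to 100.4. From replicate 1, it was thus hardly farther than replicate 4 was, and abundant genes weigh most in this statistic. With 551 CPM of *Plin4*, WT Old replicate 2 also had 1531 CPM of *Pnpla2* (434 to 686 CPM in the other mice), 565 CPM of *Lpin1*, a phosphatidate phosphatase (269 to 459 CPM), and 282 CPM of *Cebpb* (45.9 to 126 CPM). With 8.64 CPM of *Scd1* it had 7.22 CPM of *Fasn*, the fatty acid synthase (11.4 to 23.9 CPM), and 89.8 CPM of *Gpam*, which starts triglyceride synthesis (192 to 307 CPM). Its *Adipoq* (2.74 CPM) and *Cidec* (1.64 CPM) lay within the range of the other mice. The genes named in this paragraph were chosen after their values were seen. Immediate early genes, which respond to handling and stress, summed to 543 CPM in this mouse, 1227 CPM in WT Old replicate 4, 762 CPM in C2-/- Old replicate 2 and between 34.9 and 83.1 CPM in the other 5, and their part in the pattern was not tested.

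**Figure D5:**
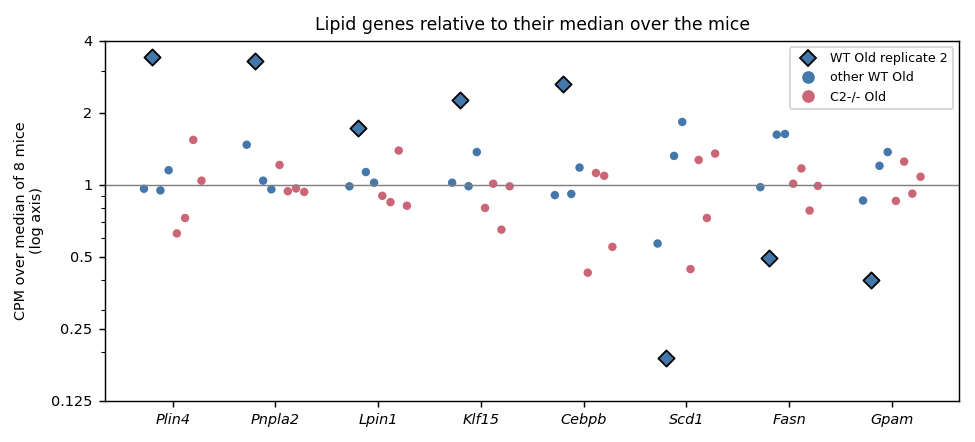
CPM of 8 lipid genes over their median of the 8 mice (y axis, log scale), with WT Old replicate 2 as a diamond, the other WT Old mice in blue and C2-/- Old in red. The diamond is the highest point for *Plin4* (3.43), *Pnpla2* (3.29), *Lpin1*, *Klf15* and *Cebpb*, and the lowest for *Scd1* (0.189), *Fasn* and *Gpam*.

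The stromal and other cell types that could accompany fat were read beside these genes. All 10 markers of fibro-adipogenic progenitors and preadipocytes had log2 fold changes above 0, with a median of 0.33, and *Dcn* (0.32) and *Pdgfrb* (0.33) had unadjusted p of 0.028 and 0.0443 in edgeR (background 3.38% higher), while 0 passed the adjusted threshold. When 1 mouse was left out, these unadjusted p in edgeR lay between 0.0186 and 0.0733 for *Dcn* and between 0.0117 and 0.105 for *Pdgfrb*. *Pdgfra*, the defining marker, had 6.99 to 11.7 CPM in WT Old and 10.3 to 14.0 CPM in C2-/- Old. The list summed to between 288 and 407 CPM in WT Old and between 432 and 481 CPM in C2-/- Old, without overlap. Most of this sum was *Dcn*, with 185 to 262 CPM in WT Old and 270 to 317 CPM in C2-/- Old. Of the 10 markers, 2 (*Dcn* and *Lum*) did not overlap between the genotypes, beside 3.38% of all tested genes, and *Pdgfra* overlapped. Tendon markers were above 0 for 6 of 7, with *Scx* (−0.13) below. They summed to between 80.6 and 248 CPM in WT Old and between 188 and 403 CPM in C2-/- Old. *Col1a1* (1.3) and *Tnmd* (1.43) had unadjusted p of 0.00366 and 0.0264 in edgeR (background 3.38% higher) and adjusted p of 0.608 and 0.882.

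Macrophage markers summed to between 31.9 and 80.0 CPM in WT Old and between 54.5 and 84.7 CPM in C2-/- Old, with the lowest sum in WT Old replicate 1 and the highest in C2-/- Old replicate 3, the mice with the lowest and highest *Adipoq*. Markers of slow fibres, in which *Car3* is known to be high, summed to between 57.1 and 93.9 CPM in WT Old and between 52.2 and 82.9 CPM in C2-/- Old. Of these 8 markers, 6 were below 0 and 2 above. *Myl2* (−1.66) and *Myh7* (−2.47) had unadjusted p of 0.00402 and 0.0321 in edgeR (background 1.91% lower) and adjusted p of 0.615 and 0.914. *Myh7* had 20.9 CPM in WT Old replicate 4 and between 0.365 and 2.62 CPM in the other 7 mice, and without that mouse its log2 fold change was −0.51, with an unadjusted p of 0.458 in edgeR, and that of *Myl2* −1.13. Blood markers ranged from 483 to 6300 CPM in WT Old and from 908 to 5886 CPM in C2-/- Old. Schwann cell markers were below 0 for 6 of 6, and 0 had an unadjusted p under 0.05. The part of these cell types in the levels of the adipocyte genes was not tested.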

How the data were processed

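TA muscle RNA from 4 old mice of each genotype was sequenced singly, and libraries were grouped by the genotype in their labels. The authors deposited expected counts per gene and TPM values in 1 table. The methods of the study name HISAT and featureCounts, with alignment to GRCm38.p6, and the submitters' processing notes also name Bowtie2 and DESeq2. The authors' own fold changes and p-values in the table were not used, nor were 8 columns of FPKM values. Fractional values made up 5.5% to 6.53% of the counts per library, and all counts were rounded. Totals lay between 25425993 and 29747692 counts per mouse.

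The counts of 16686 genes were fitted with edgeR 4.0.16 (R 4.3.3), with TMM factors, the default filter (12542 genes) and the quasi-likelihood test with Benjamini-Hochberg adjustment over all tested genes. CPM use library sizes multiplied by the TMM factors. Levels between genes were compared in the deposited TPM only. Relations to *Adipoq* used log2 CPM with a prior count of 2 and exact permutation tests (scipy 1.17.1). The alternatives were RLE size factors, library totals, other filters, limma-voom (limma 3.58.1), DESeq2 1.42.0, a replicate block and leaving out each mouse. The fit was tested on simulated data. The methods of the study name limma and voom, which also take counts. The edgeR quasi-likelihood test was chosen as the main test, with limma-voom as an alternative.

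The 10 genes and all lists were chosen with earlier results of these data known. Named are all 10 genes, up to 3 genes with the smallest p in each lipid list, and the 5 genes most like *Adipoq* and *Car3*. *Lpin1*, *Fasn*, *Gpam* and the genes most like *Plin4* and *Scd1* were added after their values were seen. The libraries of 1 genotype were taken as separate animals, as their titles number them. No 2 libraries of 1 genotype agreed within sampling noise (chi-square per degree of freedom of at least 28.9). Pairs across the genotypes were not compared, and this statistic cannot show by itself that the animals were separate.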

Additional observations from a re-analysis of the deposited data

Results flagged for a closer look

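In groups of 4 mice, a value was set apart when its gap to the nearest other mouse, divided by the range of the group, was above Dixon's 95% critical value. For 31 genes in 2 genotypes, 62 groups were checked. Chance flags about 1 in 20 groups of normally distributed values. Several of these genes were named for their p or after their values were seen, so that rate does not hold for these groups. *Adipoq* in WT Old replicate 1 was low, at 0.771 CPM, with a gap of 0.842 of the range. *Plin4* in WT Old replicate 2 was high, at 551 CPM (0.917 of the range), and so was *Cebpb* in the same mouse, at 282 CPM (0.842). *Pck1* in WT Old replicate 4 was high, at 2.97 CPM (0.877), and so was *Myh7*, at 20.9 CPM (0.89). *Pnpla2* in C2-/- Old replicate 1 was high, at 563 CPM (0.885), and *Lpin1* in C2-/- Old replicate 3, at 459 CPM (0.857). *Mybpc2*, the targeted gene, was high in C2-/- Old replicate 3, at 38.3 CPM (0.985), against 3.85 to 4.35 CPM in the other mice of that genotype. The causes were not tested.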

How the results depend on the processing

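Of 159 log2 fold changes of the 10 genes under 16 alternatives, 137 kept their direction, 22 reversed, and 0 had an adjusted p under 0.05. *Adipoq* (0.55 to 1.13), *Plin1* (0.50 to 1.28), *Cfd* (0.51 to 1.2) and *Cidec* (0.39 to 1.01) stayed above 0 and *Plin4* (−1.03 to −0.05) and *Pparg* (−0.53 to −0.22) below 0 in all of them. The reversals were of *Lep*, *Scd1*, *Fabp4* and *Car3*, whose fold changes were near 0. With library totals in place of TMM factors, *Lep* was 0.00244, *Scd1* 0.02 and *Car3* 0.02. With limma-voom, *Lep* was 1.0 and *Scd1* 0.27, and with quality weights *Lep* was 0.48 and *Car3* 0.00399. Leaving out 1 mouse at a time gave −0.64 to 1.69 for *Lep*, −0.38 to 0.47 for *Scd1*, −0.07 to 0.12 for *Fabp4* and −0.15 to 0.10 for *Car3*. *Lep* has no value with at least 10 counts in every mouse. The cause was not tested.

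The number of the 10 genes with an unadjusted p under 0.05, 0 in edgeR, was 1 with library totals, 1 without the filter, 1 with at least 10 counts in every mouse and 1 with DESeq2, and 0 to 2 when 1 mouse was left out. The number of lipid genes, 1 in edgeR, was 4 without the filter, 2 with quality weights and 4 with DESeq2, and 0 to 7 when 1 mouse was left out, with 0 without C2-/- Old replicate 1 and 7 without WT Old replicate 4. With the replicate number as a block, 2 of the 10 genes (*Adipoq* and *Plin1*) and 6 lipid genes had an unadjusted p under 0.05. In that fit, *Lep* was 0.55 and *Scd1* 0.15, and 0 of the 10 genes had an adjusted p under 0.05. The share of all tested genes under 0.05 was not taken in these alternatives, so no background stands beside their counts. Mice of the same number are different animals, and the sample titles give only a genotype and a number. Their deviations correlated by 0.267, 0.042, −0.051 and 0.021. Such correlations cannot decide whether mice of the same number shared a handling step, and this was not tested.

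Without the 2 mice farthest from the median of *Adipoq*, the relation to *Adipoq* changed sign for *Plin4* (r = −0.15), *Fabp4* (0.44), *Pparg* (0.46) and *Car3* (0.18). The mice left lay within 2.35 to 2.81 CPM of *Adipoq*, except C2-/- Old replicate 2, so these signs cannot be read. Depth limits *Lep* (0 to 71 counts per mouse), and also *Plin1*, *Adipoq* and *Cidec*, whose lowest mice had 18, 20 and 23 counts.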
